A study of Mus musculus with 6 samples.

Results

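Chromatin accessibility was followed from embryonic day 10.5 (E10.5) to embryonic day 13.5 (E13.5) in pancreatic nuclei of C57BL/6 mouse embryos homozygous for a deletion of a Ptf1a enhancer (genotype Ptf1aenh-delta/enh-delta, called KO here). The KO nuclei came from 2 single-nucleus ATAC libraries, in which a transposase cuts open chromatin and each nucleus carries its own barcode. They were taken by 2 rules: at least 2000 genes with a score above 0, and a summed score below 15 over Slc4a1, Gypc, Tal1 and Lyl1, 4 genes active in red blood cell precursors and their relatives. These rules kept 918 of the 4454 ATAC nuclei of the series, 616 from the E10.5 KO library and 302 from the E13.5 KO library. The E10.5 library was made from hand-dissected multipotent pancreatic progenitor tissue pooled from 5 to 9 embryos, and the E13.5 library from whole pancreas pooled from 6 embryos. Embryos of genotype Ptf1a+/+ on the same strain (WT) gave a library at each stage, from which the same rules kept 711 and 1717 nuclei. Homozygous embryos carry the deletion in every cell, so it is not restricted to the pancreas.

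Ptf1a is a basic helix-loop-helix transcription factor that is needed for the pancreas to form and later, in a complex with Rbpj or Rbpjl, for acinar cells to make digestive enzymes. In this window of development the multipotent epithelial bud grows, branches and is patterned into tips, which lead to acinar cells, and a trunk, which gives ducts and endocrine cells. Foxa1, Foxa2, Sox9 and Pdx1 mark the early epithelium, and Neurog3 starts the endocrine programme. The gene score sums accessible fragments assigned to a gene, so it reports open chromatin around a gene and not its transcription.

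Each stage of each genotype is 1 library, so no test can be made between them. Stage, library, pool of embryos and, for E13.5, the month named in the barcodes (September for KO, July for WT) cannot be told apart. Scores of every nucleus sum to 10000 over 8269 genes, so they are relative, and the number of fragments behind them is unknown. Kept KO nuclei had a median of 5498 genes above 0 at E10.5 and 5638 at E13.5, against 5198 and 4014 in WT. The red-cell rule removed 4 of 620 KO nuclei that passed the gene minimum at E10.5 and 243 of 545 at E13.5. The cut fell where nuclei were few: 13 KO nuclei of E13.5 had a sum between 10 and 15 and 11 a sum between 15 and 20. The kept KO nuclei had a mean sum of 2.66 at E10.5 and 3.11 at E13.5. The KO libraries shared 1 barcode. Of the epithelial markers, Sox9 was above 0 in 99.8% of KO nuclei at E10.5 and 94.7% at E13.5, and Pdx1 in 78.2% and 73.8%. All differences below are log2 ratios of mean score, E13.5 over E10.5, after adding 0.05 to each mean, which shrinks the change of genes with low scores.

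Most genes kept their score. Of 8230 genes above 0 in at least 10% of the nuclei of either KO library, the median log2 ratio was 0.01 with an SD across genes of 0.22, and 77.3% lay within 0.25 of 0. A difference of 1.5-fold (0.58 on the log2 scale) was reached by 42 genes higher at E13.5 (0.51% of those tested) and 76 genes lower (0.923%). Only Lgals4 was 2-fold higher, and Cpa3, Nepn and Ghrl were 2-fold lower. The last genes inside the threshold were Akr1e1 at -0.59 and Tomm22 at 0.59, and the first outside were Pdzrn4 at -0.58 and Gigyf1 at 0.58. With nuclei matched on the number of genes above 0, in bins of 500 genes, 72 of the 76 lower genes and 38 of the 42 higher genes stayed past the threshold. Without the red-cell rule 778 genes were higher and 1326 lower, so the account rests on that rule.

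**Figure D1:**
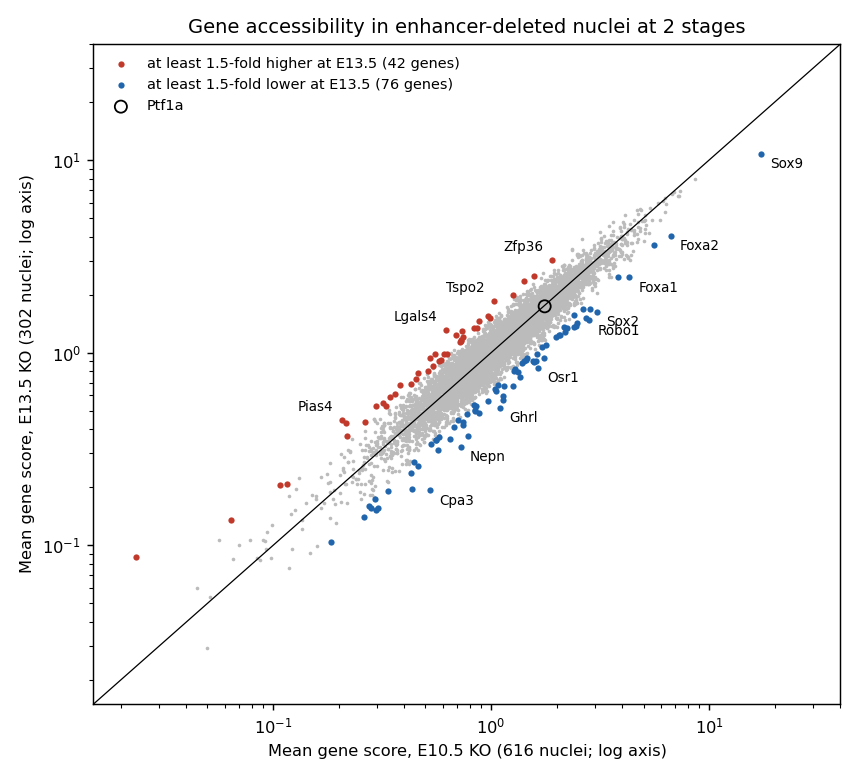
Mean gene score in KO nuclei at E10.5 (x axis) and E13.5 (y axis), both on log axes, 1 point per tested gene, with the line of equal scores. Coloured points are the 42 genes at least 1.5-fold higher and the 76 at least 1.5-fold lower at E13.5, and the open circle marks Ptf1a, which lies on the line.

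The score of Ptf1a was nearly the same at both stages in the KO nuclei. It averaged 1.76 at E10.5 and 1.74 at E13.5, a log2 ratio of -0.02. The share of KO nuclei with a score above 0 was 74.2% (exact 95% binomial interval 70.5 to 77.6, counting error only) and 66.9% (61.3 to 72.2). In the WT libraries the mean went from 2.47 to 4, a log2 ratio of 0.68. The mean of KO therefore lay below that of WT at both stages, by a log2 ratio of -0.48 at E10.5 and -1.18 at E13.5. The share of nuclei above 0 did not differ in this way: in WT it was 71% (67.5 to 74.3) and 67.1% (64.8 to 69.3). These shares were not matched for depth, on which they depend. At E13.5 the median nucleus had 5638 genes above 0 in KO and 4014 in WT. The difference between the 2 stage ratios was -0.70 and could not be tested. The median nucleus scored 1.28 and 0.907 in KO and 1.48 and 2.16 in WT, and the 90th percentile was 4.05 and 4.04 in KO and 6.23 and 10.7 in WT. In the RNA library of E10.5 KO tissue, 0 of 4011819 UMIs from 369 cells came from Ptf1a, with an exact Poisson upper limit of 0.92 CPM. Of 8 genes listed for this part of chromosome 2, 3 were measured, Ptf1a among them, and none reached 1.5-fold in KO. Etl4 had scores of 3.96 and 3.68, and Mllt10 had 1.81 and 1.73. Etl4 is not next to Ptf1a: it starts at position 19910207, against 19445663 for Ptf1a. The other listed genes were not measured.

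Promoter windows of 4 genes on which the account turns are given here, as the 250 bases before an annotated start. They come from RefSeq on GRCm38.p6 (the mm10 build of the submitters' processing notes) and read 5′ to 3′ on the gene's strand. The Ptf1a window ends where the gene's annotated span begins, while those of Nkx2-2, Foxa1 and Lgals4 lie inside the spans of their genes. Ptf1a (chr2:19445413-19445662, + strand) is the gene whose enhancer was deleted, Nkx2-2 (chr2:147186403-147186652, - strand) and Foxa1 (chr12:57546112-57546361, - strand) are epithelial factors described below, and Lgals4 (chr7:28833544-28833793, + strand) is the gene with the highest KO ratio. Capitals mark matches on either strand to CANNTG, the E-box letters that basic helix-loop-helix factors bind, and to TGGGAA, letters bound by the Rbpj part of the Ptf1a complex.
Ptf1a: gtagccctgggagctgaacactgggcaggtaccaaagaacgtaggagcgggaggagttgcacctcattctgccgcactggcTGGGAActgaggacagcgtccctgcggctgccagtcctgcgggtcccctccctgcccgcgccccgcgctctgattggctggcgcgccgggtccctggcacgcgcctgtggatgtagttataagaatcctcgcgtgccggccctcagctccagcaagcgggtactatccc
Nkx2-2: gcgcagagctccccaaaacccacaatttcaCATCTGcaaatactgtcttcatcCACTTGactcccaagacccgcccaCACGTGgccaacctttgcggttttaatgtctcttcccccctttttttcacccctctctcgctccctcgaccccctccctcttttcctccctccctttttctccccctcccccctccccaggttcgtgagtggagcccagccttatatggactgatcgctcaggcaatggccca
Foxa1: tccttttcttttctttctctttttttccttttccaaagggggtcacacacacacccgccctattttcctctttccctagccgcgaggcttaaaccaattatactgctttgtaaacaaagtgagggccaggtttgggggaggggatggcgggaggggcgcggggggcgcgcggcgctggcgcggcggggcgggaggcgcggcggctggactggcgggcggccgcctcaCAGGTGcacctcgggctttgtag
Lgals4: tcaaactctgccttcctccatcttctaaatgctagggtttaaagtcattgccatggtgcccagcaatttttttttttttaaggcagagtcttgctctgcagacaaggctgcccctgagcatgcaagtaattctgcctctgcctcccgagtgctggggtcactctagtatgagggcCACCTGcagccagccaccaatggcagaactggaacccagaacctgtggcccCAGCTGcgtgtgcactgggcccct

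The Ptf1a window held 1 TGGGAA match and no E-box letters, the Nkx2-2 window 3 E-boxes, the Foxa1 window 1 and the Lgals4 window 2. A match is a string of letters and not a measured binding site. Among all 32851 RefSeq windows of this length 66.2% held CANNTG and 21.6% held TGGGAA. Windows of the tested genes held them in 56% and 20.2%, those of the lower genes in 64% and 24%, and those of the higher genes in 66.7% and 11.9%. Windows were found for 57 of the 76 lower genes (75 windows) and 37 of the 42 higher genes (42 windows). The lower genes' windows had a median of 10 CpG dinucleotides and 53.6% G and C, against 16 and 58.2% for the higher genes and 16 and 60.4% for all tested genes. For all RefSeq windows the medians were 6 and 52.4%. Motifs with the letters TGTTTNC, to which Fox factors bind, were present in 20% of the lower genes' windows, 11.9% of the higher genes' and 13.3% of all tested. Among all RefSeq windows the share was 17.8%.

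Acinar and tip genes, the targets of the Ptf1a complex among them, stayed within 1.5-fold in the KO nuclei. Of 11 measured genes on this list none reached 1.5-fold in either direction, and the median log2 ratio was 0.02, beside 0.01 for all tested genes. The ratios ran from -0.39 for Gata4, a zinc finger factor of foregut and tip cells (3.61 to 2.74), to 0.28 for Ctrb1, which encodes the digestive protease chymotrypsinogen B (0.902 to 1.11). In WT the median of the same 11 genes was 0.44, with 3 higher and 1 lower, where 0.998% of 8217 WT genes were higher and 2.12% lower. Among other list members, named after their values were seen like the others below that are not at a list's end, Rbpjl went from 0.701 to 0.71 in KO and from 0.754 to 1.12 in WT. Carboxypeptidase gene Cpa1 went from 1.65 to 1.29 in KO and from 1.80 to 1.96 in WT. Clps, the gene of pancreatic colipase, had 1.35 and 1.59 in KO and 1.35 and 2.16 in WT.

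Several factors that define the early pancreatic epithelium had less accessible chromatin at E13.5. Of 14 measured progenitor factors, Foxa1, Foxa2 and Sox9 were lower and none was higher, and the list's median was -0.08. Of all tested KO genes 0.923% were lower and 0.51% higher, the shares to set beside each KO list count here and below. Foxa1 and Foxa2, pioneer factors that open endoderm chromatin, went from 4.31 to 2.46 (log2 ratio -0.79) and from 6.66 to 4.04 (-0.71). Sox9, which maintains the progenitor pool, went from 17.3 to 10.8 (-0.67). The middle of the nuclei moved with the means: the median nucleus had a Sox9 score of 15.9 at E10.5 and 9.92 at E13.5, and a Foxa1 score of 3.91 and 1.84. The distributions overlapped, with the 90th percentile of Foxa1 at E13.5 (5.5) above the E10.5 median. Its upper quartile at E13.5 (3.63) lay below that median.

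In WT, Foxa1 was the 1 lower gene of the list, where 2.12% of all tested WT genes were lower. Foxa1 went from 3.99 to 1.53 (-1.36). Foxa2 went from 5.71 to 4.72 (-0.27), and Sox9 from 16.1 to 15.9 (-0.01). The other progenitor factors stayed within 1.5-fold in KO. Pdx1, the homeodomain factor of the pancreatic and duodenal endoderm, had 2.61 and 2.35, and Hhex had 2.01 and 2.20. Nkx6-1, a factor of trunk and beta cells, had 2.77 and 2.50 in KO and 2.75 and 3.97 in WT. Nkx2-2, an endocrine and progenitor factor, had 2.25 and 1.79 in KO and 2.37 and 3.55 in WT. Hnf4a was the highest member in KO, at 0.30 (1.28 to 1.58).

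**Figure D2:**
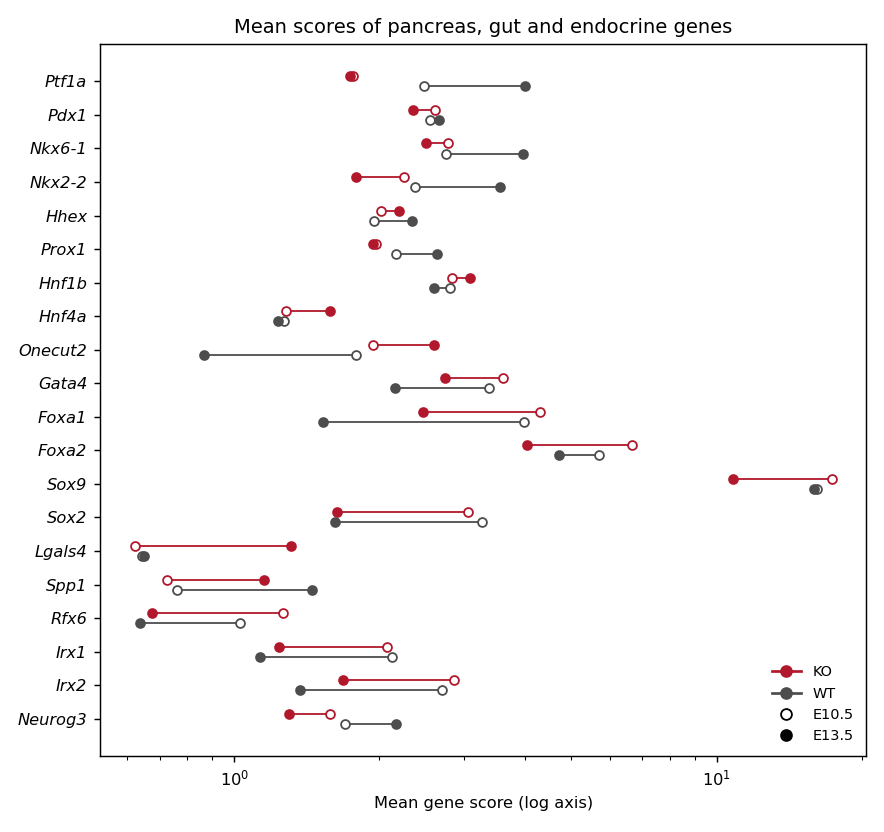
Mean gene score (log axis) of 20 genes at E10.5 (open circles) and E13.5 (filled circles), in KO (red) and WT (grey), 1 library per circle and hence no error bar. The Ptf1a circles of KO lie on each other at 1.76 and 1.74 while those of WT stand at 2.47 and 4, and Onecut2 moves in opposite directions in the 2 genotypes.

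Endocrine genes leaned lower. Of 19 measured genes of endocrine commitment 17 had a ratio below 0, and 3 were lower by 1.5-fold: Rfx6, a regulator of islet formation, went from 1.26 to 0.674 (-0.85), Irx2 from 2.85 to 1.68 (-0.74) and Irx1 from 2.07 to 1.24 (-0.72). None was higher, and the list's median was -0.33 in KO and -0.14 in WT. Over all tested KO genes 0.923% were lower and 0.51% higher. With at least 1000 genes per nucleus in place of 2000, Irx1 had a ratio of -0.45 and was no longer past the threshold. Each of these 3 was also lower in WT, at -0.65, -0.95 and -0.89. Neurod2 was highest, at 0.12. Neurog3 went from 1.58 to 1.3 in KO (-0.28) and from 1.70 to 2.16 in WT (0.33), both inside the threshold.

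Among 22 genes of hormones and the secretory pathway, Ghrl and Pcsk1 were lower and none higher, with a median of -0.17. The share lower over all tested KO genes was 0.923%. Ghrl, the gene of the hormone ghrelin, went from 1.10 to 0.516 (-1.02), and was above 0 in 34.3% of KO nuclei at E10.5 (30.5 to 38.2) and in 20.2% at E13.5 (15.8 to 25.2). In E10.5 KO RNA it had 5100 UMIs, or 1271 CPM (exact Poisson interval 1237 to 1307). Pcsk1, a prohormone convertase, went from 0.427 to 0.237 (-0.73). Scores of the insulin genes stayed within the threshold, with Ins1 at 0.708 and 0.54 and Ins2 at 0.574 and 0.501, as did Gcg, the glucagon gene, at 0.563 and 0.598.

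A cluster of nuclei with raised endocrine markers was found at each stage and is called endocrine-like. It held 65 of 616 KO nuclei at E10.5 (10.6%, 8.24 to 13.3) and 48 of 302 at E13.5 (15.9%, 12 to 20.5). The clusters were built separately at each stage from these scores, with some of the same genes, so the values within them are descriptions. They are numbered by size, so 1 number need not name the same kind of nuclei at both stages. In the endocrine-like KO nuclei Neurog3 had a mean of 3.14 at E10.5 and 1.3 at E13.5, while the WT endocrine-like nuclei had 3.09 and 3.71. Ghrl had 1.70 and 1.65 in these nuclei, and Gcg had 0.82 and 1.52. In the largest cluster, number 0, Ghrl had 0.975 and 0.288. Irx2 had 4.04 and 3.40 in the endocrine-like nuclei and 2.68 and 1.43 in cluster 0.

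Cluster 0 stayed unnamed at both stages and held 465 KO nuclei (75.5%) at E10.5 and 232 (76.8%) at E13.5. Its leading genes were Hoxb6, Setdb1 and Hoxb5 at E10.5 and Sdc4, Hoxb7 and Rbpjl at E13.5. At E13.5, with both genotypes together, 12 of 14 trunk and duct markers were raised in cluster 0, with a mean log2 ratio of 0.55. None of those markers was among its top 10 genes, so it was not named. Cluster 1, of nuclei with few genes above 0 (medians of 3080 and 2715), also unnamed, held 86 KO nuclei (14%) at E10.5 and 9 (2.98%) at E13.5. At E10.5 its mean Sox9 (21.6) and Foxa2 (8.81) scores were above those of cluster 0, and Cpa3 was among its leading genes. Within cluster 0, 57 of the 76 lower and 27 of the 42 higher genes were past 1.5-fold. Foxa1 went from 4.36 to 2.70 there (-0.68) and Foxa2 from 6.15 to 4.10 (-0.58), just short of the threshold. Sox9 went from 17.1 to 12.2, and its ratio of -0.49 fell short of it. Ptf1a had 1.78 and 1.98 in cluster 0 of KO and 2.62 and 4.49 in that of WT. A cluster of 13 E13.5 KO nuclei (4.3%) that passed the rules was led by the red-cell genes and had Ptf1a, Pdx1 and Foxa1 at 0. Without these nuclei 42 genes were higher and 65 lower, but these were not all the same genes. Of the 76 lower genes 61 were still past 1.5-fold, and of the 42 higher genes 34.

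The nuclei spread widely around each mean. Lgals4 was 0 in the median KO nucleus at E10.5 and 0.558 at E13.5, and its 90th percentile was 1.90 and 3.79. Onecut2, a cut-homeodomain factor of liver, bile duct and pancreas epithelium, had a median of 1.79 and 2.17 in KO and of 1.55 and 0 in WT.

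**Figure D3:**
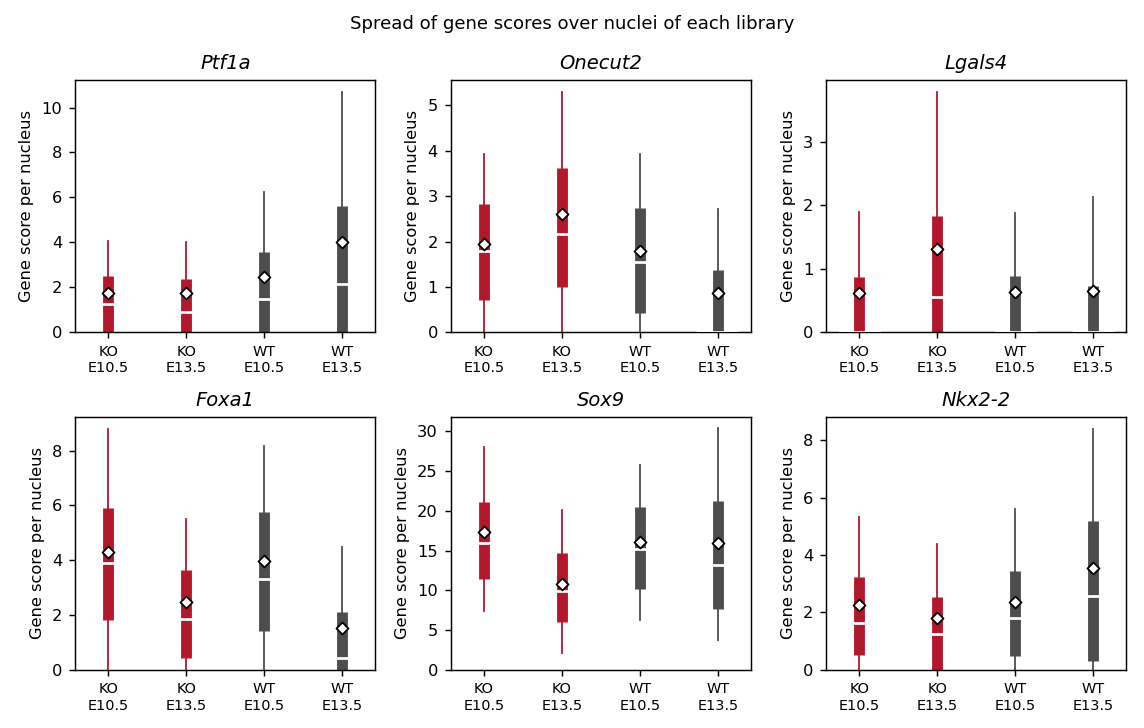
Gene score per nucleus (linear axis from 0) of 6 genes in the 4 libraries: thick bars span the 25th to 75th percentile over nuclei, thin lines the 10th to 90th, white lines the median and diamonds the mean. The bars are the spread among nuclei of 1 library and not an error of the mean; Lgals4 and Onecut2 are highest in KO at E13.5, and Ptf1a in WT at E13.5.

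Trunk and duct genes had a median of 0.09 over 14 members, with Spp1 higher and Sox9 lower. Spp1, the gene of osteopontin and a duct marker, went from 0.724 to 1.15 (0.64), and in WT from 0.761 to 1.45 (0.89). Among 20 liver and bile duct genes, Alb (0.558 to 0.351, -0.60) and Itih2 (0.832 to 0.535, -0.59) were lower and none was higher, and Alb had -0.57 after depth matching. Onecut2 was the highest of this list, from 1.94 to 2.60 (0.41).

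Gut and stomach genes divided. Of 11 measured, Sox2 was lower, Lgals4 was higher, and the median was -0.21. Sox2, a factor of the stomach and foregut, went from 3.05 to 1.63 (-0.88) in KO and from 3.26 to 1.62 (-0.98) in WT. Lgals4, the gene of an intestinal galectin, went from 0.622 to 1.31 (1.01) in KO and from 0.643 to 0.649 (0.01) in WT. It was above 0 in 48.7% of KO nuclei (44.7 to 52.7) and then in 63.6% (57.9 to 69.0). Its higher score lay in cluster 0 (0.653 to 1.52) and not in the endocrine-like nuclei (0.815 to 0.70). In E10.5 KO RNA it had 2 UMIs. Cdx2, the intestinal homeodomain factor, had 3.49 and 2.48 (-0.48) in KO and 3.27 and 2.38 (-0.45) in WT, and Tff1, a stomach trefoil factor gene, had 1.47 and 2.06 (0.47) in KO and 1.38 and 1.33 (-0.05) in WT.

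Hox genes, which mark position along the body axis, were lower at E13.5 in both genotypes, and the difference between the genotypes was not tested. All 12 measured had a ratio below 0 in KO, with a median of -0.28 and the highest, Hoxb7, at -0.02. In WT the median was -0.93 and 10 of the 12 were lower by 1.5-fold, beside 2.12% of all tested WT genes. Hoxa3 went from 2.39 to 1.82 in KO and from 2.44 to 0.946 in WT, and Hoxb4 from 1.35 to 1.14 and from 1.54 to 0.752. Neighbouring Hox genes share chromatin, so these are not 12 separate observations.

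Markers of mesenchyme, the connective tissue around the bud, had a ratio below 0 in 22 of 25 cases in KO, and the sum of their mean scores went from 38.4 to 31.9 in KO and from 38.0 to 31.9 in WT. The KO median was -0.27. Lower by 1.5-fold were Osr1 (1.64 to 0.836, -0.93), Tcf21 (1.58 to 0.898, -0.79) and Col1a2 (0.677 to 0.412, -0.65), beside 0.923% of all tested KO genes. None was higher, and the highest was Col3a1 at 0.18. Osr1 and Tcf21 are transcription factors of visceral mesenchyme. Summed scores of the other lists of cells outside the epithelium moved less in KO. They went from 12.9 to 11.9 over 14 endothelial genes and from 14.9 to 16 over 15 immune genes. Over 17 red-cell genes outside the selection rule the sum went from 15.7 to 16.5. Over 13 neural crest and neuron genes it went from 13.9 to 12.5, with 10 ratios below 0 and a median of -0.20. No member of these lists was at 0 in the KO libraries. The part of these cells in the stage differences was not tested. Sox18, an endothelial factor, was the only endothelial gene past the threshold (1.98 to 1.21, -0.68), and Nfe2, an erythroid and megakaryocyte factor, the only gene of the red-cell list (0.717 to 1.14, 0.63, and 0.53 without the 13 red-cell-led nuclei). Of the selecting genes themselves, Slc4a1 (0.39), Gypc (0.44), Tal1 (0.16) and Lyl1 (-0.12) had been bounded by the rule.

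Signalling and cell cycle genes stayed inside the threshold in KO. None of 14 Notch, 10 FGF, 25 Wnt and 26 cell cycle genes reached 1.5-fold, and the medians were 0.04, -0.15, -0.07 and 0.02. Fgfr1, a receptor of FGF signals, was the lowest of its list (1.43 to 0.987, -0.51), and Ctnnb1, the gene of beta-catenin, the highest of the Wnt list (1.31 to 1.78, 0.43). Of 12 immediate early genes, which respond to handling of tissue, Zfp36 alone was past the threshold (1.91 to 3.02, 0.65, and 0.47 in cluster 0), and the median was 0.11 in KO and 0.40 in WT. Of 16 genes used by all cells 15 were tested, with a median of 0.18 in KO, and Actb reached 0.57 (2.62 to 3.90).

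**Figure D4:**
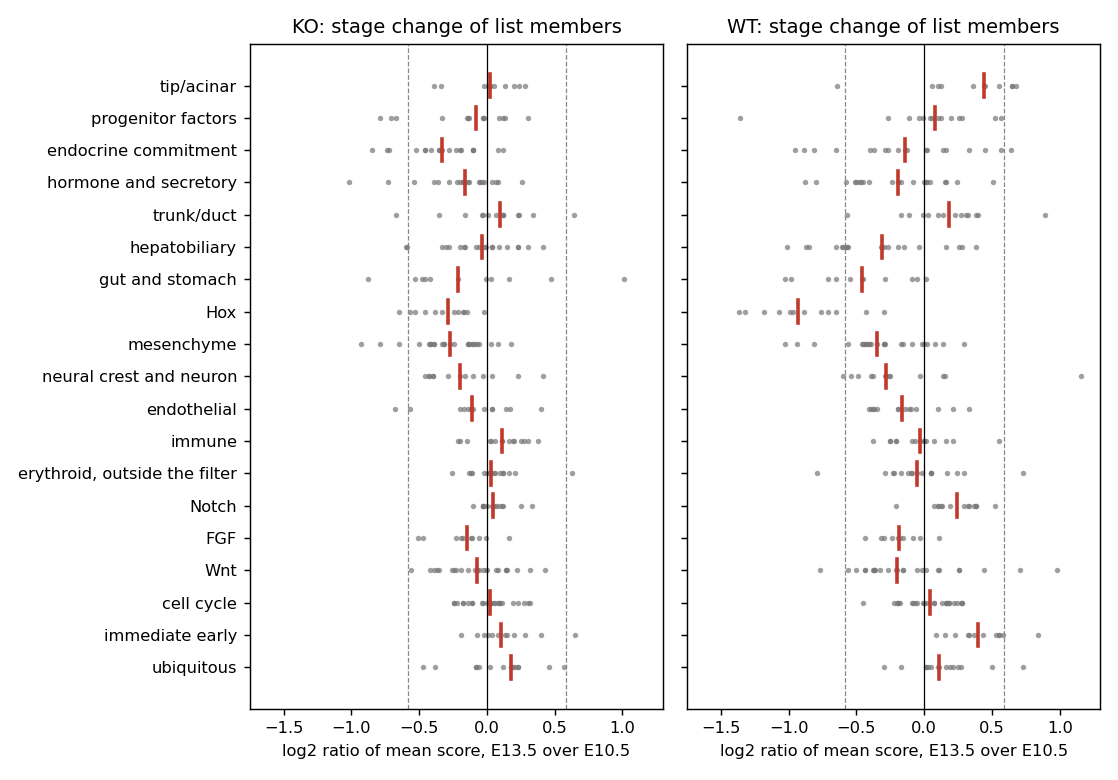
Log2 ratio of mean score, E13.5 over E10.5, of each tested member (grey points) of 19 gene lists in KO (left) and WT (right), with list medians as red bars and dashed lines at 1.5-fold. The tip/acinar bar stands at 0.02 in KO and 0.44 in WT, and the Hox bar at -0.28 and -0.93.

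Among the 10 lowest genes past the threshold before and after matching were Cpa3, Nepn, Ghrl, Irs4, Dcn, Zcchc18, Osr1, Robo1 and Sox2, from -1.24 to -0.88. Cpa3, a mast cell carboxypeptidase gene, went from 0.524 to 0.193, and its ratio of -1.24 was -0.64 in cluster 0. Nepn, the gene of nephrocan, a secreted protein of the early gut endoderm, went from 0.724 to 0.324 (-1.05) and in WT from 0.809 to 0.233 (-1.6). It had 808 UMIs in E10.5 KO RNA (201 CPM). Robo1, a receptor for Slit guidance proteins, went from 2.80 to 1.47 (-0.91), and in WT from 2.71 to 1.49 (-0.84). Dcn, the gene of the matrix protein decorin, went from 0.432 to 0.196 (-0.97) and had 11 UMIs. Irs4, an insulin receptor substrate gene, went from 0.787 to 0.37 (-0.99), and Zcchc18 from 1.13 to 0.566 (-0.94).

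The 10 highest were Lgals4, Pias4, Gtpbp1, Tmed6, Tspo2, Clcn5, Trim10, Iqgap1, Stk11 and Stab1, from 1.01 to 0.76. Pias4, a SUMO ligase gene, went from 0.207 to 0.448 (0.95) and did so in WT too, from 0.241 to 0.508 (0.94). Stk11, the gene of the kinase LKB1, went from 0.739 to 1.29 (0.77) and in WT from 0.658 to 1.5 (1.14), and Iqgap1, a cytoskeletal scaffold gene, from 0.526 to 0.933 (0.77) and in WT from 0.506 to 0.969 (0.87). Clcn5, a chloride transporter gene, went from 0.691 to 1.23 (0.79) in KO and stayed at 0.809 and 0.806 in WT. Its KO difference rested on a few nuclei: with scores capped at the 99th percentile the ratio was 0.12, and the 95th percentile was 2.57 at both stages. Stab1 had a ratio of 0.36 in nuclei with at least 3000 genes and 0.53 in cluster 0. Gtpbp1 scored 0.0235 and 0.0865, near the added 0.05, on which its ratio of 0.89 depends. Trim10 (0.551 to 0.989) and Tspo2 (1.03 to 1.85) are genes known from red-cell development, and their ratios were 0.76 and 0.97 in cluster 0, against 0.79 and 0.81 in all nuclei.

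Stage changes of KO and WT were set side by side. Across 8217 genes tested in both, Pearson's r of the ratios was 0.58, a description, since genes within a library share its depth and composition and are not replicates. Of the 76 genes lower in KO 74 had a ratio below 0 in WT, and 40 passed 1.5-fold there, which is 52.6% of the KO genes and 23% of the WT ones. Of the 42 higher genes 38 had a WT ratio above 0 and 11 passed, 26.2% and 13.4%. No gene passed 1.5-fold in opposite directions.

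The stage changes of the genotypes lay furthest apart in a few genes. Onecut2 had the widest positive gap, 1.42, from a KO ratio of 0.41 (1.94 to 2.60) and a WT ratio of -1.01 (1.79 to 0.865), so that KO lay above WT by 1.53 on the log2 scale at E13.5 and by 0.11 at E10.5. It was above 0 in 86.4% of KO nuclei (82.0 to 90.1) and 48.3% of WT nuclei (46.0 to 50.7) at E13.5. Tm4sf20, a membrane protein gene, had a gap of 1.11 (KO 0.598 to 0.822, WT 0.59 to 0.351) and Lgals4 a gap of 1.00. Gm15050 and Hoxa4, neighbours on chromosome 6, had gaps of 1.23 and 1.00, and scored 1.84 to 1.29 and 1.24 to 1.09 in KO.

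On the other side stood Rtl8b (-0.95), Nkx2-2 (-0.90), Cpa3 (-0.84) and Myt1 (-0.81). Rtl8b, a retrotransposon-derived gene on the X chromosome, went from 0.573 to 0.313 in KO and from 0.445 to 0.507 in WT. Nkx2-2 was level with WT at E10.5 (-0.07) and below it at E13.5 (-0.97). Its gap held in cluster 0, where KO had a ratio of -0.23 and WT of 0.45. Myt1, a zinc finger factor of endocrine progenitors, had -0.32 and -0.10 there, and Cpa3 -0.64 and -0.56. WT nuclei of E13.5 had fewer genes above 0 than the others. With nuclei matched on that number between stages, the gaps were 1.35 for Onecut2, 1.13 for Tm4sf20, 1.02 for Lgals4, 1.13 for Gm15050 and 0.97 for Hoxa4. On the other side they were -0.94 for Rtl8b, -0.84 for Nkx2-2, -0.73 for Cpa3 and -0.86 for Myt1. In nuclei with at least 3000 genes the Cpa3 gap was -0.16. The part of depth in these gaps was not otherwise tested.

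**Figure D5:**
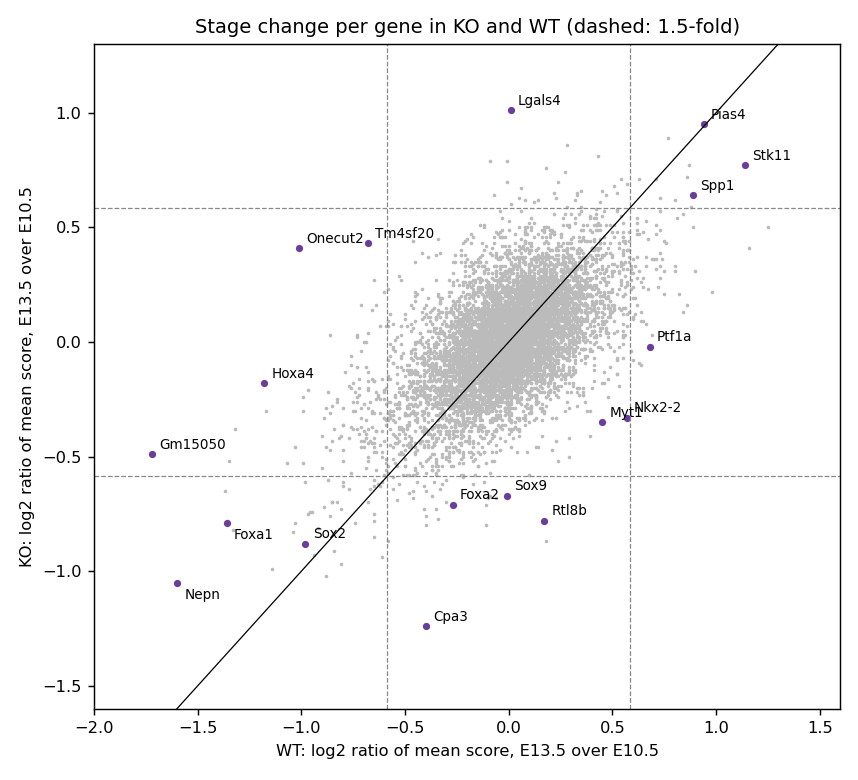
Stage change of each gene in WT (x axis) and KO (y axis), as log2 ratios of mean score, E13.5 over E10.5, with dashed lines at 1.5-fold and the line of equal change. Named genes are in purple; Onecut2 and Tm4sf20 lie upper left of the line, Ptf1a, Nkx2-2 and Rtl8b lower right, and no gene lies in the corners of opposite direction.

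Transcripts of these genes could be seen in KO tissue at E10.5 only, since RNA was made at that stage alone. At least 10 UMIs were counted for 64 of the 76 lower genes (84.2%) and 37 of the 42 higher genes (88.1%), against 94.6% of all tested genes. Their median levels were 26.9 and 43.0 CPM, and 42.4 CPM for all. Sox9 had 480 CPM (459 to 502), Foxa2 153 and Foxa1 27.7, while Sox2 had 4.24 (2.47 to 6.78). The median gene length was 15740 bp for the lower and 13059 bp for the higher genes, against 23592 bp for all tested.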

How the data were processed

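Gene scores were deposited by the authors as a signal that is never negative, scaled to 10000 per nucleus per the file's values. The build was mm10, per the submitters' processing notes, and no aligner, cell filter or score tool is given in the sources used here. RNA was deposited by the authors as raw UMI counts, from which CPM (UMIs scaled to a common total) were computed over cells with at least 1000 genes. Nuclei were assigned to libraries by barcode prefix, and 0 columns of other samples were present.

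Mean scores over kept nuclei were compared between stages with a pseudocount of 0.05, for genes scoring above 0 in 10% or more of the nuclei from either library. With 1 library per group no test was run. Clusters came from scanpy 1.11.5 and leidenalg 0.10.2 per stage (2000 variable genes without Ptf1a and the tip/acinar list, unit variance, 30 components, 15 neighbours, resolution 0.3). A cluster could be named only from the marker list with the highest mean log2 ratio. That list needed a mean of at least 0.3, at least 3 raised markers and a marker among the cluster's top 10 genes. No other list could have more genes there. These thresholds were settled after the clusters were seen. Doublets were not called, and fragment counts are unknown. Intervals are exact binomial (shares) or exact Poisson (UMIs) at 95% and cover counting error only. The calculations were tested on simulated data.

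Genes named were Ptf1a, the 10 highest and 10 lowest in KO that held after depth matching, each list's ends, the progenitor, acinar and endocrine genes past 1.5-fold, the 5 widest gaps to WT on each side and the 4 selecting genes. A few genes that meet this rule are left out here. Members and lists were chosen with earlier results of these data known. Alternatives changed the nucleus minimum, red-cell rule, pseudocount, gene filter, centring, capping, fold, depth matching and clusters used.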

Additional observations from a re-analysis of the deposited data

Results flagged for a closer look

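In 6 of the genes described for their gap to WT the stage change ran in opposite directions in the KO and WT libraries, each being 1 library per stage, and the difference was not tested. The KO minus WT log2 difference was -0.95 for Rtl8b, -0.90 for Nkx2-2, -0.81 for Myt1, 1.42 for Onecut2, 1.11 for Tm4sf20 and -0.70 for Ptf1a. Ptf1a's KO ratio was -0.02, so its sign has no weight. In cluster 0 alone the KO and WT ratios were 0.42 and -1.06 for Onecut2, 0.64 and -0.67 for Tm4sf20 and -0.23 and 0.45 for Nkx2-2, while those of Rtl8b (-0.69 and -0.05), Myt1 (-0.32 and -0.10) and Ptf1a (0.15 and 0.77) had 1 sign in both.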

How the results depend on the processing

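Of 1425 recomputed values under 14 alternatives, 1116 stayed within the tolerance (0.1 on the log2 scale, or 1.5 times for a count), 308 moved and 1 past 1.5-fold changed sign: Spp1 fell to -0.10 without the red-cell rule. Counting genes inside the threshold too, 24 of 978 stage ratios of named genes changed sign, 15 of them under that setting. Of 460 ratios recomputed for genes past 1.5-fold, 49 fell inside it, 21 of these with a pseudocount of 0.5. Leaving out the red-cell rule gave 778 higher and 1326 lower genes and a Ptf1a ratio of -0.72. A pseudocount of 0.5 left 2 higher and 16 lower genes, and nuclei without the endocrine-like clusters gave 64 and 148. A 2-fold threshold left 1 and 3. The Ptf1a ratio was 0.17 with a red-cell sum under 5 and 0.15 in cluster 0 alone, a setting added after the data were seen, as was leaving out the red-cell-led cluster. The endocrine-like share at E13.5 was 8.14% with no filter on nuclei. No endocrine-like cluster was found at resolution 0.2 at either stage, or at E10.5 with unscaled values (also added later). No paired analysis was possible because each group has 1 library. Leaving out a replicate was not possible for the same reason. Unknown fragment counts limit the precision of low scores, and the causes of these movements were not tested.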
